A study of Mus musculus with 2 samples.

Results

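Lcn2 encodes lipocalin 2, also called neutrophil gelatinase-associated lipocalin, and is 1 of the 31053 genes counted in the kidney cells of this study. It was followed by its UMIs (unique molecular identifiers, each standing for 1 captured RNA molecule) in every cell with 500 UMIs or more, 200 genes or more and a mitochondrial share under 50%. The study profiled kidney cells of 5-week-old mice by droplet sequencing of RNA 3' ends (10x Chromium) after cold protease digestion, red cell lysis and removal of dead cells. There were 2 samples, 1 labelled Kif3aΔTub with the genotype KO and 1 labelled WT. Kif3a encodes a motor subunit that builds the primary cilium, and the name reads as its deletion in the tubule, but the promoter or Cre line that drives it, the strain and the sex are not given in the sources used here. The title sets the study in the question of how chronic kidney disease, through secreted factors, relates to muscle wasting.

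Lipocalin 2 is a small secreted protein that binds bacterial siderophores and so keeps iron from bacteria. In the kidney it is best known as a marker of tubular injury, made by the distal nephron and collecting duct and measured in urine, while neutrophils store it in their granules. Its gene is known to respond to NF-kB with its cofactor encoded by Nfkbiz, to the C/EBP factors and to STAT3.

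The gene lies on the minus strand of mouse chromosome 2 at chr2:32384633-32388252 (GRCm38, GENCODE vM21), and its main protein-coding transcript, Lcn2-201, has 6 exons. No annotated gene overlaps it on either strand, and the nearest ones, 1110008P14Rik and Ptges2, lie 2694 and 7643 bases away. The 192 bases before the start of Lcn2-201 are shown because the levels of its known regulators are part of the results. They come from RefSeq's promoter table for GRCm38.p6, chr2:32387798-32387989, minus strand, with motif matches in capitals. RefSeq's own start of the gene lies 58 bases inside Lcn2-201, and 139 bases of the window are exonic in Lcn2-206, a longer annotated transcript.
Lcn2 promoter: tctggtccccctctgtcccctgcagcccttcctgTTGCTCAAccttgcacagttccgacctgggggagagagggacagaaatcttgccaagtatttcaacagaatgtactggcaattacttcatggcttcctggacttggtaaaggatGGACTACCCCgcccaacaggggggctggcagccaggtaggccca
Both strands were searched with 3 patterns, whose matches did not overlap. The C/EBP-like pattern TTGCNNAA matched once, 158 bases before the start of Lcn2-201, and matches 7.84% of 32851 promoter windows of the same length. The NF-kB-like pattern (GGG, 5 bases of any kind, CC) matched once on the other strand, 44 bases before that start, and is common, at 35.7% of windows. The STAT-like TTCNNNGAA was not in this window (5.56% of windows). These are matches of letters and not measured binding.

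Filtering and removal of doublets left 7066 Kif3aΔTub and 4317 WT cells, whose median UMI counts were 7799 and 7771. Median mitochondrial shares were 7.54% in Kif3aΔTub and 26.8% in WT cells, and the part that this difference plays in any result was not tested. Kif3a stood at 12.2 CPM (UMIs of a gene per 1000000 UMIs) in the Kif3aΔTub library and 10.3 CPM in WT, so the counts of its 3' end do not show the deletion, and a 3' tag may lie outside the deleted part. The libraries shared 20 barcodes, 17 of them among the kept cells. With 1 library per genotype there is no replicate check and no test, and every interval below is a 95% interval that covers counting error only. Cells were grouped without Lcn2 and without any gene of the lists used below, and a group is called by a cell type with "-like" when its markers pass. Clusters 14, 20, 22 and 26 stayed unnamed. Aqp2 and Fxyd4 mark the cells called principal-like here, which take in connecting tubule cells as well.

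Lcn2 was abundant in the distal tubule of the Kif3aΔTub kidney and low in the WT kidney. The Kif3aΔTub library held 321393 Lcn2 UMIs and the WT library 197, or 4065 and 4.64 CPM. By UMIs it had rank 15 among all genes in Kif3aΔTub and rank 9534 in WT. In Kif3aΔTub 4705 cells (66.6%, 65.5 to 67.7) had at least 1 Lcn2 UMI, against 78 cells (1.81%, 1.43 to 2.25) in WT. At least 10 UMIs were found in 2762 Kif3aΔTub cells and in 3 WT cells, and at least 100 in 893 Kif3aΔTub cells and in 0 WT cells. The highest single cell held 2327 Lcn2 UMIs in Kif3aΔTub and 17 in WT. The log2 ratio over all cells was 9.77 (9.57 to 9.98), to which the different mix of cell classes in each library contributes.

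Among the cell classes, principal-like cells, the water- and sodium-reabsorbing cells of the collecting duct, stood highest. They carried 7808 CPM of Lcn2 (7776 to 7839) in 2443 Kif3aΔTub cells and 137 CPM (116 to 160.3) in 167 WT cells, a 57.2-fold difference. Lcn2 was found in 91.1% of these cells in Kif3aΔTub and in 31.1% in WT, and by UMIs it had rank 8 among all genes in the Kif3aΔTub class. Both libraries thus had the bulk of their Lcn2 here, 73.6% of all Lcn2 UMIs in Kif3aΔTub and 75.6% in WT. Thick ascending limb-like cells, the salt-reabsorbing cells of the loop of Henle, had 3328 CPM (3286 to 3370) in 574 Kif3aΔTub cells and 5.07 CPM (2.90 to 8.23) in 330 WT cells, or 656.8-fold. Of these cells 96.9% were positive in Kif3aΔTub and 3.94% in WT. Distal convoluted tubule-like cells had 1833 CPM (1791 to 1875) in 333 Kif3aΔTub cells, with 80.5% positive, and no Lcn2 UMI in 214 WT cells, where 0 UMIs allow up to 1.80 CPM. Set against that limit the level was at least 1018-fold higher in Kif3aΔTub.

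The order of these 3 classes differed between fold and level. On the log2 scale the ratio was 5.83 (5.61 to 6.08) in principal-like cells and 9.31 (8.66 to 10.17) in thick ascending limb-like cells, and the intervals do not overlap. In WT the level was 137 CPM in principal-like cells, above the 5.07 CPM in the limb beyond counting error. Among the 11307 genes with at least 20 UMIs in thick ascending limb-like cells, Lcn2 had rank 4 by log2 ratio. It had rank 1 of 10061 in distal convoluted tubule-like cells and rank 22 of 12734 in principal-like cells. A high rank was not particular to these classes, since Lcn2 also had rank 1 in intercalated-like and endothelium-like cells and rank 2 in proximal tubule-like cells. The median gene shifted by 0.48, 0.46 and 0.03 in the limb, the convoluted tubule and principal-like cells, far less than Lcn2. Median mitochondrial shares were 7.15% in Kif3aΔTub and 14.1% in WT principal-like cells, 7.13% and 34.0% in limb-like cells, and 13.9% and 37.2% in convoluted tubule-like cells, and their part in these ratios was not tested.

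**Figure D1:**
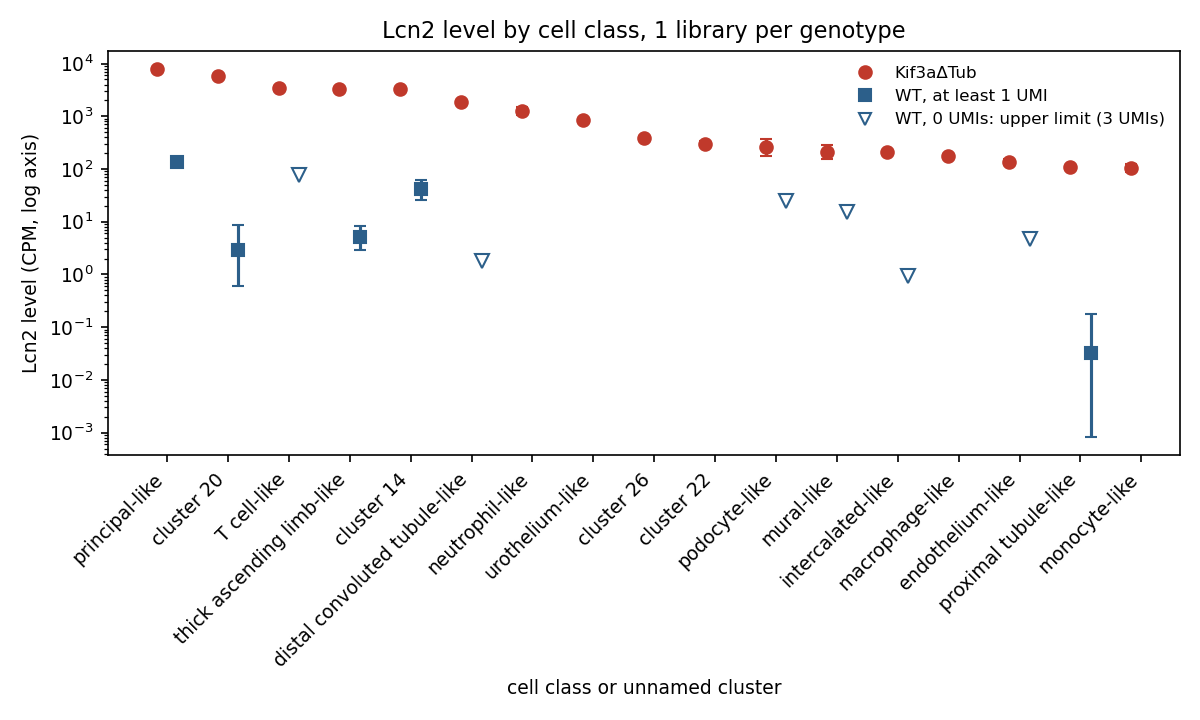
Lcn2 level in CPM on a log axis (y) for each cell class or unnamed cluster with at least 30 Kif3aΔTub cells (x), ordered by the Kif3aΔTub level. Red circles are the Kif3aΔTub library, blue squares the WT library with exact 95% Poisson intervals of counting error, and open triangles the limit that 0 WT UMIs allow, and WT is drawn where it has at least 10 cells; the 3 classes of the distal nephron stand at 7808, 3328 and 1833 CPM in Kif3aΔTub.

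Different clusters held most of a class in each library, so the contrast was also read within clusters that both libraries entered. In cluster 17, the principal-like cluster with both libraries well filled, Lcn2 stood at 2122 CPM in 176 Kif3aΔTub cells and 116 CPM in 124 WT cells, or 18.4-fold. In cluster 0 it stood at 6087 CPM in 1019 Kif3aΔTub cells and 410.2 CPM in only 11 WT cells, or 14.8-fold. In cluster 3, of cells with few UMIs, it stood at 6227 CPM in 648 Kif3aΔTub cells and 29.9 CPM in 31 WT cells from 1 UMI, a log2 ratio of 7.12 (5.23 to 13.01). In cluster 13, which held 319 of the 330 WT thick ascending limb-like cells, the 26 Kif3aΔTub cells had 356 CPM (287.02 to 436.7) and the WT cells 5.24 CPM (2.99 to 8.50). Cluster 8, with 548 of the 574 Kif3aΔTub limb cells and 11 WT cells, stood at 3436 CPM in Kif3aΔTub and had no Lcn2 UMI in WT. In cluster 12 the 332 Kif3aΔTub cells of the distal convoluted tubule had 1834 CPM and the 44 WT cells had no UMI, which allows up to 9.65 CPM, and the other 170 WT cells of that class, in cluster 21, had none either. Within the same cluster the Kif3aΔTub cells were higher in each of the 6 clusters, by less than over the whole class in clusters 0, 17 and 13. The interval of cluster 3 holds the log2 ratio of the whole principal-like class (5.83).

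Among principal-like cells of the Kif3aΔTub kidney, cluster 5 stood highest, at 11611 CPM in 600 cells, and held Lcn2 among its 10 leading genes together with Sprr2f and Igfbp2. Only 1 WT cell fell into it. Lcn2 was also among the 10 leading genes of cluster 3, whose Kif3aΔTub cells had a median of 1128 UMIs. Without that cluster the class had 7868 CPM in Kif3aΔTub and 139.9 CPM in WT, and 98.997% of its 1795 Kif3aΔTub cells and 37.5% of its 136 WT cells were positive.

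The unnamed clusters carried Lcn2 as well. Cluster 14, with markers of both principal and intercalated cells and a median of 26661 UMIs in Kif3aΔTub, had 3286 CPM in 312 Kif3aΔTub cells and 40.9 CPM in 21 WT cells. It held 9.86% of the library's Lcn2 in Kif3aΔTub and 11.7% in WT. Cells called as doublets had been removed before clustering, so the lack of a call says nothing about this cluster. Whether its cells are doublets was not tested. Cluster 20, defined by genes of cell division such as Top2a and Mki67, had 5837 CPM in 136 Kif3aΔTub cells and 2.95 CPM in 70 WT cells. Within it the Kif3aΔTub cells ran from none to 376.8 Lcn2 UMIs per 10000. A rho of 0.3 or more was reached by 33.4% of 7501 genes and -0.3 or less by 1.19%, and Lcn2 went up with the epithelial genes Muc1 (Spearman's rho 0.83) and Epcam (0.75) and down with the proximal tubule enzymes Cyp2j5 (-0.48) and Sult1d1 (-0.47). Markers of the proximal tubule, the limb and the collecting duct all passed in this cluster, so it mixes segments.

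Low Lcn2 counts in the other classes had to be read against free RNA, which droplets take up from broken cells. Aqp2, the vasopressin-regulated water channel of principal cells, served as the yardstick, since the other classes should not make it. Over all Kif3aΔTub cells there were 2.17 Lcn2 UMIs for each Aqp2 UMI. Proximal tubule-like cells had 2.35, endothelium-like cells 1.49, monocyte-like cells 2.49, macrophage-like cells 3.09 and intercalated-like cells 3.07. The intercalated-like value pools cluster 11, with 5.81 (686 Lcn2 and 118 Aqp2 UMIs), and cluster 16, with 1.09. Thick ascending limb-like cells had 120.5 Lcn2 UMIs per Aqp2 UMI and distal convoluted tubule-like cells 13.6, far above it. After thinning each cell to 1500 UMIs, 84.0% of limb cells, 58.5% of convoluted tubule cells and 93.6% of principal-like cells remained positive in Kif3aΔTub, against 10.9% of proximal tubule-like, 13.6% of endothelium-like, 12.3% of macrophage-like and 15.0% of intercalated-like cells. T cell-like cells, which should lack the gene, were positive in 18.2% of 33 thinned cells (6.98 to 35.5). Unthinned, 21.1% of 38 such cells were positive, at a median of 2291 UMIs. The principal cell markers Aqp2 and Fxyd4 also passed in their cluster. B cell-like cells were positive in 3 of 16 (18.8%) unthinned cells. The thinned shares of proximal tubule-like, endothelium-like, macrophage-like and intercalated-like cells lie inside the T cell-like interval. That interval comes from 33 cells and is wide, so lying inside it does not decide whether a class makes Lcn2. Unthinned, the shares of these classes were 42.2%, 25.3%, 31.8% and 47.4%, at median depths of 7985, 2704, 4380 and 8476 UMIs. The classes are neither counted as a source of Lcn2 nor excluded as one here, and the part of free RNA in their counts was not tested. In the intercalated-like clusters 11 and 16 the thinned shares were 14.3% and 16.7%. The Lcn2 to Aqp2 ratio of cluster 11 was nevertheless above that of the library, so for this cluster the measures differ.

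In the WT kidney there were 0.0161 Lcn2 UMIs per Aqp2 UMI over all cells and 1.60 in thick ascending limb-like cells, from 16 Lcn2 and 10 Aqp2 UMIs. In WT 1 Lcn2 UMI was found in 2963 proximal tubule-like cells (0.0326 CPM) and none in 288 intercalated-like or 155 endothelium-like cells. The level was 109.5, 209.1 and 138.3 CPM in these classes in Kif3aΔTub, or 3358-fold, at least 224-fold and at least 29.9-fold higher. The 3358-fold rests on 1 WT UMI, with a log2 ratio of 11.13 (9.23 to 17.02). The part of free RNA in these ratios was not tested, and intercalated-like cluster 11 was not settled either.

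**Figure D2:**
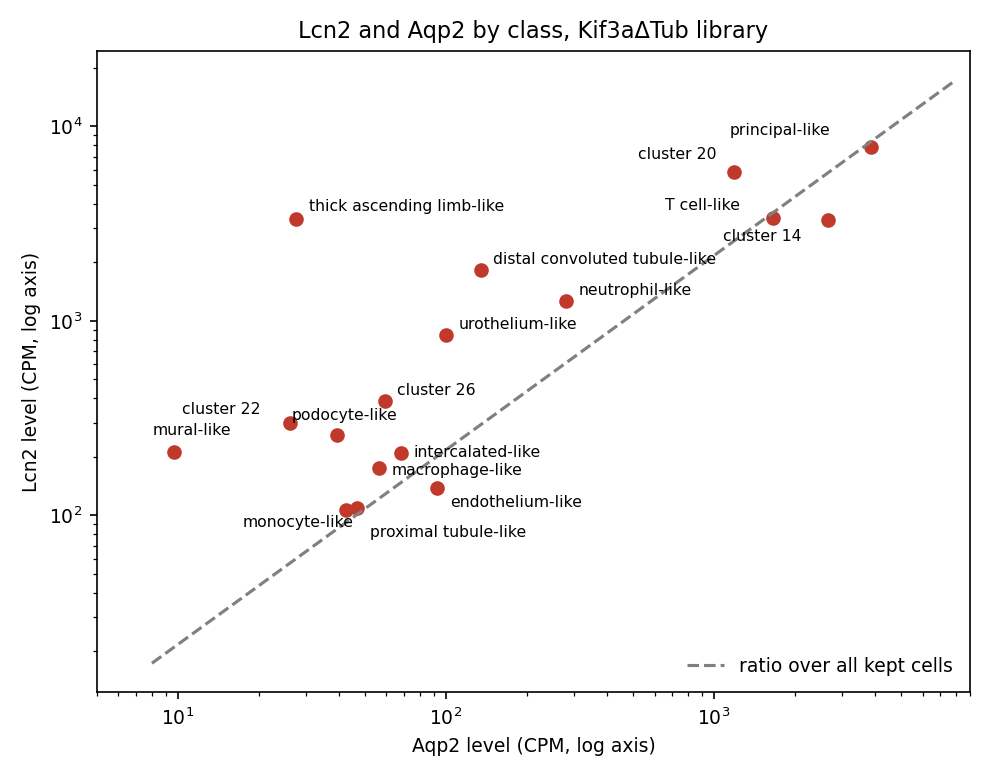
Lcn2 level (y) against Aqp2 level (x), both in CPM on log axes, 1 point per class or unnamed cluster of the Kif3aΔTub library. The dashed line is the ratio over all kept cells (2.17 Lcn2 UMIs per Aqp2 UMI): proximal tubule-like, endothelium-like and monocyte-like cells lie on or near it, while thick ascending limb-like cells (120.5) and distal convoluted tubule-like cells (13.6) lie well above.

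A few small classes stood between these groups. Neutrophil-like cells, 83 in Kif3aΔTub and 0 in WT, had 1266 CPM (1043 to 1522) from 113 UMIs, with 4.52 Lcn2 UMIs per Aqp2 UMI and 49.4% of cells positive at a median of only 999 UMIs. Only 7 of them were deep enough to thin. Their markers S100a8 and S100a9 led the cluster, and Mmp9, the gelatinase that binds lipocalin 2, stood at 1310 CPM in them. Neutrophils gave 0.0352% of the library's Lcn2 UMIs. Urothelium-like cells, the lining of the renal pelvis, had 843.3 CPM in 83 Kif3aΔTub cells, with 8.43 Lcn2 UMIs per Aqp2 UMI, and 138.9 CPM in 5 WT cells from 5 UMIs. Of the 38 T cell-like cells of Kif3aΔTub, 1 cell held 376 of the 405 Lcn2 UMIs, and the level was 3371 CPM with it and 289.8 CPM without it.

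Ordered by level in Kif3aΔTub and leaving out T and B cells, principal-like cells came first, then cluster 20, then thick ascending limb-like cells and cluster 14, whose intervals overlap (3286 to 3370 and 3250 to 3322 CPM), then distal convoluted tubule-like, neutrophil-like and urothelium-like cells. Then came cluster 26 (387.6), cluster 22 (299.4), podocyte-like (259.7), mural-like (212) and intercalated-like cells (209.1). The wide podocyte interval (178.7 to 364.7) overlaps all the others of these, and mural-like cells overlap cluster 22 and intercalated-like cells. Macrophage-like (174.3), endothelium-like (138.3), proximal tubule-like (109.5) and monocyte-like cells (106) closed the order, and the monocyte interval overlaps the 2 before it. Without the 1 cell with the most Lcn2 UMIs, cluster 22 had 151.8 CPM, podocyte-like cells 87.8 CPM and mural-like cells 81.3 CPM, below intercalated-like cells at 180.8 CPM, so the place of these 3 in the order rests on single cells. In WT only principal-like cells, cluster 14 and urothelium-like cells stood above 10 CPM.

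Lcn2 varied widely from cell to cell in principal-like, limb-like and convoluted tubule-like cells. In principal-like cells of Kif3aΔTub the median was 45.2 Lcn2 UMIs per 10000 UMIs of a cell, the 10th percentile 3.20, the 90th percentile 154.5, and the highest cell reached 886.9. That cell lay in cluster 3, of cells with few UMIs. Without cluster 3 the median was 54.4, the 10th percentile 13.2, the 90th percentile 157.3 and the highest cell 625.1. In thick ascending limb-like cells the median was 22.6, the 10th percentile 3.37 and the 90th percentile 71.2. In distal convoluted tubule-like cells the median was 5.11, the 10th percentile was 0, and the highest cell reached 220.5. The top 10% of cells held 49.5%, 44.8% and 56.7% of the Lcn2 UMIs of these 3 classes. With every cell thinned to 1500 UMIs the variance was 12.96, 5.32 and 7.26 times the mean, where counting error alone gives 1. In WT principal-like cells it was 1.12 times a mean of 0.12 UMIs per cell. At so low a mean this ratio stays near 1 for a wide range of spreads, so it cannot compare the libraries.

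**Figure D3:**
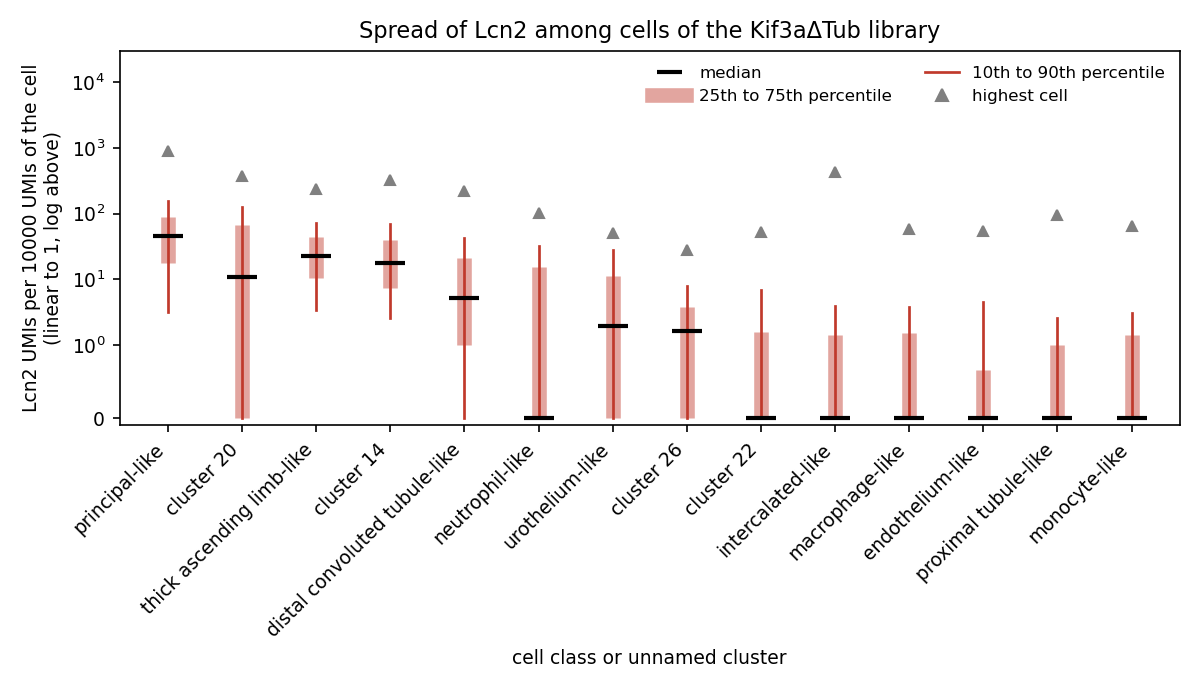
Lcn2 UMIs per 10000 UMIs of a cell (y, linear to 1 and log above) for each class or unnamed cluster with at least 50 Kif3aΔTub cells (x). Black dashes are medians, thick bars the 25th to 75th percentiles, thin lines the 10th to 90th and grey triangles the highest cell; medians are 45.2 in principal-like, 22.6 in limb-like and 5.11 in convoluted tubule-like cells, and 0 in intercalated-like and proximal tubule-like cells.

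Lcn2 also differed with the calbindin content of cells. Calb1 and S100g encode the calcium-binding calbindins of the late distal convoluted and connecting tubule, and the cells richest in them had the least Lcn2. This comparison was chosen after the values had been seen and leaves out clusters of low UMI count. Cells of a class were ordered by these UMIs and split into 3 groups of like size. In distal convoluted tubule-like cells of Kif3aΔTub, the group lowest in Calb1 and S100g had 2493 CPM of Lcn2 (2409 to 2580), the middle group 2049 CPM and the highest group 797.3 CPM (746.7 to 850.3). The median mitochondrial share was 11.1% in the lowest group and 20.7% in the highest, and its part in the difference was not tested. In principal-like cells of Kif3aΔTub the lowest group, where no cell had a UMI of either gene, had 8925 CPM, the middle group 8983 CPM and the highest group 5211 CPM. The middle group, with 35.0 CPM of Calb1 and S100g, also held cells with none, so the lowest and middle groups are not cleanly apart. Median depths of the lowest, middle and highest groups were 10209, 15186 and 10293 UMIs, and the part of depth was not tested. Cluster 17, with Calb1 and S100g among its 10 leading genes, had 2122 CPM of Lcn2 in Kif3aΔTub. Clusters 0 and 5 had 6087 and 11611 CPM there, and the part of cluster differences in this contrast was not tested. In WT principal-like cells, with far less Lcn2, the lowest group of 46 cells had 296.6 CPM (241.1 to 361.1), the middle group 106.9 CPM and the highest group of 45 cells 25.8 CPM (11.8 to 48.9), with 60.9%, 35.6% and 15.6% of cells positive. The groups had similar median depths there, at 6615, 7054 and 7373 UMIs. Lcn2 was thus lowest in the calbindin-rich cells of all 3 sets, and median mitochondrial shares in the WT groups lay between 13.3% and 14.3%.

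**Figure D4:**
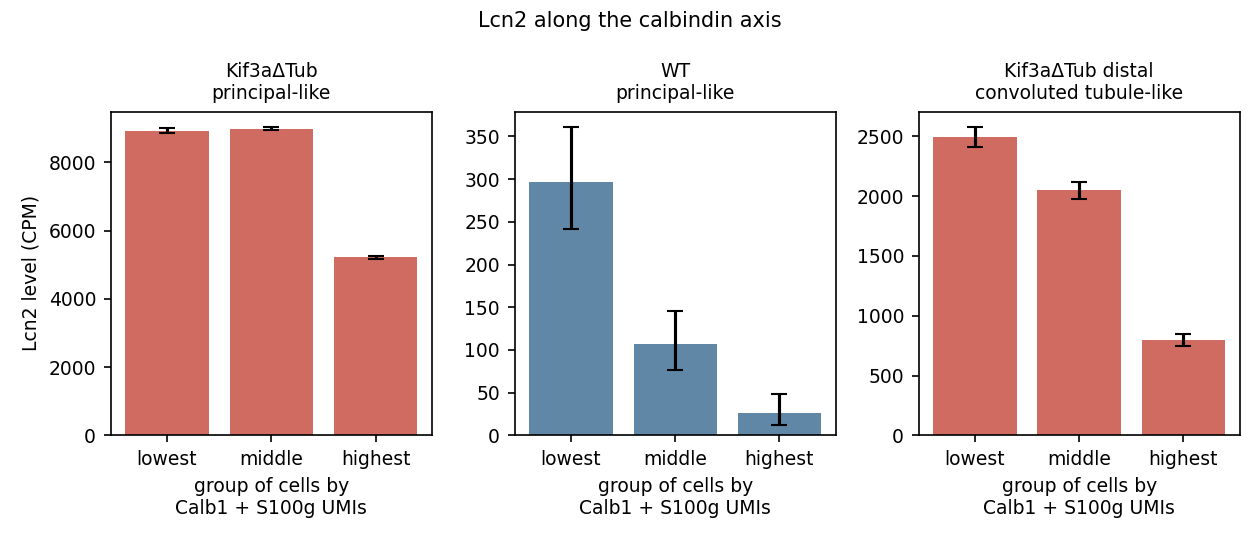
Lcn2 level in CPM (y, from 0, own scale in each panel) in 3 groups of cells ordered by their Calb1 and S100g UMIs (x), in Kif3aΔTub and WT principal-like cells and Kif3aΔTub distal convoluted tubule-like cells. Bars are summed levels and whiskers exact 95% Poisson intervals of counting error; the lowest group stands at 8925, 296.6 and 2493 CPM and the highest at 5211, 25.8 and 797.3 CPM.

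The genes that go with Lcn2 from cell to cell were ranked by Spearman's rho on UMIs per 10000, among genes found in at least 20% of the cells of a class. These correlations share the cells' depth and are descriptions without a test. In the 2443 principal-like cells of Kif3aΔTub, 93 of 6069 genes (1.53%) reached a rho of 0.3 and 1 (0.0165%) a rho of -0.3 or less. The highest were Spp1 (0.56), which encodes osteopontin, the lysosomal proteases Ctsl (0.53) and Ctsd (0.52), the chaperone clusterin, Clu (0.49), Plac8 (0.45), S100a6 (0.43), the mucin Muc1 (0.41), Basp1 (0.41), Bcam (0.40) and Clca3a2 (0.39). Mitochondrially encoded, ribosomal and predicted genes are left out of this and the following lists of highest and lowest genes. The lowest of the others were Nudt4 (-0.28), the mitochondrial Cox8a (-0.26) and Chchd10 (-0.22), the aldosterone-induced kinase Sgk1 (-0.24) and the lactate dehydrogenase subunit Ldhb (-0.22). Lcn2 per 10000 also rose with the UMIs of a cell (rho 0.35) and fell with its mitochondrial share (-0.22), and with every cell thinned to 1500 UMIs only 6 of 958 genes reached 0.3. Spp1 (0.46), Clu (0.39), S100a6 (0.38), Ctsd (0.36), Ctsl (0.32) and Plac8 (0.31) were among them.

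Within single principal-like clusters Spp1 had a rho of 0.43 in cluster 0, 0.50 in cluster 5, 0.61 in cluster 3 and 0.19 in cluster 17, and Ctsd had 0.46, 0.28, 0.49 and 0.26. Clu stood at 0.37, 0.35, 0.51 and 0.24 in the same clusters. Nudt4, a diphosphoinositol polyphosphate phosphatase, went the other way in each, at -0.48, -0.30, -0.15 and -0.20.

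In the 333 distal convoluted tubule-like cells of Kif3aΔTub, 171 of 5543 genes (3.08%) reached a rho of 0.3 and 36 (0.649%) a rho of -0.3 or less. Tmem176b (0.57), Ctsd (0.57), Ctsl (0.53), Ly6a (0.47), a gene of the Ly6 family that interferons raise, the translation factor Eef1a1 (0.46), S100a11 (0.46), Tmsb10 (0.45), Tmem176a (0.45), S100a10 (0.44) and Clu (0.44) were highest. Among the lowest were the ATP synthase subunit Atp5h (-0.42), the ketone-using enzyme Oxct1 (-0.40), Pgam2 (-0.38) and the defensin Defb1 (-0.38). Lcn2 fell with the mitochondrial share of these cells (rho -0.48), and at a mitochondrial limit of 25% 41 genes reached 0.3, with Tmem176b and Ctsd at 0.50 each and Atp5h at -0.41.

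In the 574 thick ascending limb-like cells the relations were weaker. Only 6 of 5990 genes (0.1%) reached 0.3 and 1 (0.0167%) reached -0.3. Spp1 (0.40), Tmem176b (0.34), the insulin-like growth factor binding protein Igfbp7 (0.34), Pmepa1 (0.32) and Tmem176a (0.31) were among them, and the other one was of the mitochondrial, ribosomal or predicted genes that are not named here. Dcdc2a (0.30, just under the threshold), Ctsl (0.29), Tpt1 (0.29), the matricellular gene Ctgf (0.28) and Tsc22d1 (0.28) followed. Among the lowest were Slc12a1 (-0.36), the sodium-potassium-chloride cotransporter that also marks these cells, the mitochondrial pyruvate carrier Mpc1 (-0.26) and Ppp1r1a (-0.25). Of the leading genes, Spp1 and Tmem176b reached 0.3 in all 3 classes, with Spp1 at 0.56 and Tmem176b at 0.38 in principal-like cells and at 0.41 and 0.57 in convoluted tubule cells. In the proximal tubule-like, intercalated-like, endothelium-like, macrophage-like and monocyte-like cells of Kif3aΔTub no gene reached 0.3.

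**Figure D5:**
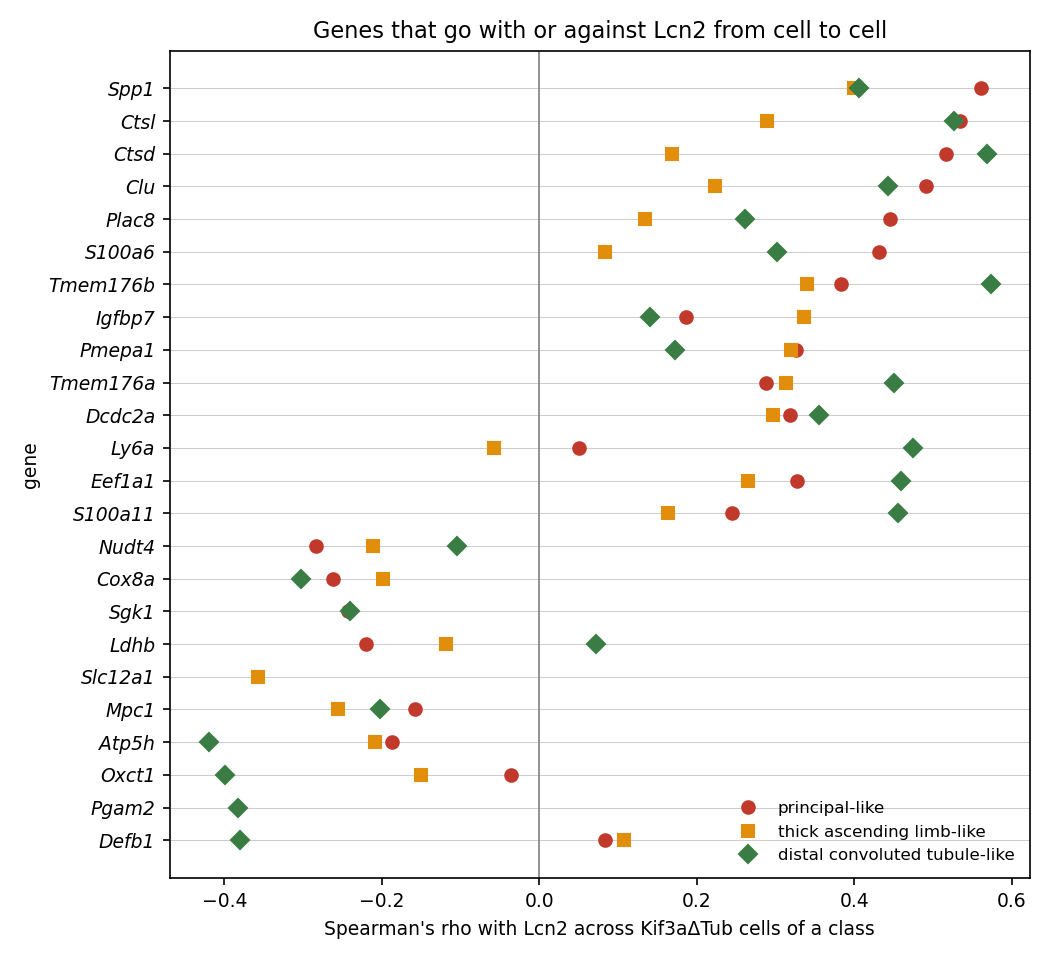
Spearman's rho with Lcn2 across Kif3aΔTub cells (x) for genes from the 6 highest and 4 lowest of each of 3 classes (y), with 2443 principal-like (circles), 574 thick ascending limb-like (squares) and 333 distal convoluted tubule-like cells (diamonds). Spp1, Ctsl, Clu and Tmem176b lie right of 0 in all 3 classes, Ly6a is at 0.47 in convoluted tubule-like and 0.05 in principal-like cells, and a missing point means the gene was found in under 20% of cells.

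In the 167 WT principal-like cells, where Lcn2 was low, another set led. Fxyd4 (0.53), a regulator of the sodium pump in the collecting duct, Arhgdib (0.50), Ube2n (0.46), Plet1 (0.43), Ctdspl (0.43), Kazn (0.43), Tax1bp3 (0.42), Mal2 (0.41), the basolateral water channel Aqp4 (0.41) and Arpc1a (0.41) were highest, and 130 of 4120 genes (3.16%) reached 0.3 and 4 (0.0971%) reached -0.3. Calb1 (-0.32), Tmem52b (-0.25) and Kcne1 (-0.25) were among the lowest. With 149 Lcn2 UMIs in these cells and a rho of 0.38 between Lcn2 and depth, a weak rho there is not read as a finding. In cluster 14 of Kif3aΔTub 2.69% of 9019 genes reached 0.3 and 1.46% reached -0.3. Tmem52b (-0.61), S100g (-0.56) and Tmem213 (-0.54) were among the lowest, and the highest were Defb29 (0.61), Cd81 (0.60), Ifitm3 (0.59), Adh1 (0.59) and Bcam (0.57).

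Of 5 listed receptors and partners of lipocalin 2, 2 were measured in each class compared and 3 in proximal tubule-like cells (at least 20 UMIs over both libraries), and none of those measured was at least 2-fold higher in Kif3aΔTub. Slc22a17, which encodes the 24p3 receptor, stood at 32.9 CPM in Kif3aΔTub and 68.7 CPM in WT principal-like cells (log2 ratio -1.07), at 19.1 and 37.4 CPM in thick ascending limb-like cells (-0.97, -1.33 to -0.60) and at 34.7 and 37.3 CPM in intercalated-like cells. Lrp2, or megalin, which takes up filtered lipocalin 2 in the proximal tubule, stood at 574.6 CPM in Kif3aΔTub and 980.4 CPM in WT proximal tubule-like cells, and its partner Cubn at 105.6 and 131.2 CPM. In the other 5 classes compared Lrp2 had at most 4.12 CPM in Kif3aΔTub and 55.5 CPM in WT, and the part of free RNA in these low counts was not tested. Slc22a17 was lower by 2-fold or more in principal-like cells, where 7.86% of all measured genes were. Mc4r, reported as a receptor for lipocalin 2 in the brain, had no UMI in the tubule classes and 4 UMIs in Kif3aΔTub endothelium-like cells. Mmp9 had 0 UMIs in the principal-like, limb and convoluted tubule cells of either library.

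Of 18 listed transcription factors that act on the Lcn2 gene, most of those measured were higher in Kif3aΔTub limb and convoluted tubule cells, and fewer in principal-like cells. At least 2-fold higher were 12 of 17 measured in thick ascending limb-like cells (median log2 ratio 1.38), 11 of 16 in distal convoluted tubule-like cells (1.89) and 7 of 17 in principal-like cells (0.86). Over all measured genes 23.5%, 21% and 12.4% were that much higher in these classes. In principal-like cells 3 factors were at least 2-fold lower (Cebpa, Hif1a and Ehf), against 7.86% of all genes. Cebpd, a C/EBP factor of the acute phase response, stood at 159 CPM in Kif3aΔTub and 12.4 CPM in WT limb cells (log2 ratio 3.67, 3.23 to 4.19). In convoluted tubule cells it stood at 143 and 7.80 CPM (4.14), and in principal-like cells at 95.3 and 13.7 CPM (2.75). Cebpb had 148 and 15.6 CPM in principal-like cells, and the epithelial factor Elf3 198 and 55.0 CPM. Nfkbiz, the NF-kB cofactor, had 42.5 and 4.12 CPM in limb cells (3.32), 32.5 and 4.20 CPM in convoluted tubule cells (2.86) and 21.1 and 7.33 CPM in principal-like cells (1.44). Klf5 had 59.6 CPM in Kif3aΔTub and no UMI in WT limb cells, at least 62.7-fold higher, and Stat3 123 and 50.7 CPM there (1.27). Bcl3 had 23.0 and 1.83 CPM in principal-like cells (3.33), while Rela (0.82), Relb (0.52), Nfkb2 (0.60), Stat3 (0.91) and Atf4 (0.86) there stayed under 2-fold, Nfkb1 exceeded it, and Rel stood at -0.15. Cebpe, the neutrophil factor, was not measured in these classes.

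These factors were also higher in classes with little Lcn2. In intercalated-like cells 12 of 17 were at least 2-fold higher (10.2% of all genes were), with Cebpd at 350.4 CPM in Kif3aΔTub and 52.2 CPM in WT and Elf3 at 121.4 and 37.0 CPM. Cebpd in intercalated-like cells of Kif3aΔTub thus stood above its 159 CPM in the limb, where Lcn2 was at 3328 CPM. In proximal tubule-like cells 14 of 17 were at least 2-fold higher (13% of all genes were), with Cebpb at 94.7 and 23.3 CPM. In endothelium-like cells 3 of 13 were (Nfkb2, Bcl3 and Cebpd), against 4.92% of all genes.

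From cell to cell, 3 of 10 measured factors reached a rho of 0.3 with Lcn2 in distal convoluted tubule-like cells of Kif3aΔTub, against 3.08% of all genes, namely Nfkbiz (0.35), Cebpd (0.35) and Elf3 (0.34). The group with the most Lcn2, of 3 groups of like size, had 238.4 CPM of Cebpd, 52.2 of Nfkbiz and 159.2 of Elf3, against 52.3, 5.70 and 39.0 CPM in the group with the least. In thick ascending limb-like cells Cebpd had 240.2 CPM in the highest and 107.4 CPM in the lowest group, while Nfkbiz (40.7 and 39.8 CPM) and Elf3 (109.9 and 102.4 CPM) stood level. None of 12 measured factors reached 0.3 in principal-like cells, where Cebpb (0.28) and Elf3 (0.26) came closest, and none of 11 did in the limb.

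NF-kB feedback and target genes were at least 2-fold higher in 12 of 13 measured in thick ascending limb-like cells, 9 of 11 in distal convoluted tubule-like cells and 7 of 15 in principal-like cells, against 23.5%, 21% and 12.4% of all genes. They were so too in 11 of 14 measured in proximal tubule-like cells (median log2 ratio 2.85) and 5 of 8 in intercalated-like cells, against 13% and 10.2%. Many of them had no WT UMI, and with such genes set at 3 WT UMIs the medians were 2.58, 1.52 and 0.30 and the count in principal-like cells 4 of 15, against 8.02% of all genes set so. Among them Nfkbia, the inhibitor that NF-kB induces against itself, had 97.7 CPM in Kif3aΔTub and 31.0 CPM in WT limb cells (log2 ratio 1.65) but 78.5 and 89.8 CPM in principal-like cells (-0.20). The adhesion molecule Icam1 and the chemokine Ccl20 had 12.2 and 8.80 CPM in Kif3aΔTub limb cells and no UMI in WT. The macrophage growth factor Csf1 had 55.5 and 7.33 CPM in principal-like cells (2.83).

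Of the cytokines known to act upstream of Lcn2, Il1b was found mainly in neutrophil-like cells (2621 CPM, 234 UMIs) and monocyte-like cells (216.2 CPM) of Kif3aΔTub, and Tnf in macrophage-like cells (12.9 CPM) of Kif3aΔTub. Il17a, Il17c, Il17f, Il6 and Il22 had fewer than 10 UMIs in every class. The receptor Il1r1 stood at 54.3 CPM in Kif3aΔTub and 46.7 CPM in WT principal-like cells, its highest class in both libraries, and at 7.58 CPM in Kif3aΔTub limb cells with no UMI in WT. The oncostatin M receptor Osmr had 18.1 CPM in Kif3aΔTub limb cells and 12.1 CPM in principal-like cells, with no UMI in WT in either.

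Most listed genes of tubular injury were higher in Kif3aΔTub in all 5 tubule classes compared. At least 2-fold higher were 23 of 24 measured in thick ascending limb-like cells, 20 of 21 in distal convoluted tubule-like cells and 17 of 24 in principal-like cells, against 23.5%, 21% and 12.4% of all genes, and none was that much lower. In proximal tubule-like cells 23 of 25 were (median log2 ratio 4.51) and in intercalated-like cells 18 of 20 (2.81), against 13% and 10.2% of all genes. With genes at 0 in WT set at 3 UMIs the medians were 3.82, 3.15 and 1.59, and 1 of 24 then counted as lower in principal-like cells. S100a6, a calcium-binding protein of injured and ductal epithelium, had 2599 CPM in Kif3aΔTub and 5.50 CPM in WT principal-like cells. Anxa3 had 196.8 CPM in Kif3aΔTub principal-like cells and no UMI in WT, and Krt19, a keratin of ductal cells, 345 and 0.95 CPM in limb cells. Within Kif3aΔTub, 12 of 19 measured injury genes reached a rho of 0.3 with Lcn2 in distal convoluted tubule-like cells, 6 of 19 in principal-like cells (Spp1, Clu, S100a6, Sox4, Anxa3 and Itgb6) and 1 of 19 in the limb (Spp1), against 3.08%, 1.53% and 0.1% of all genes. Spp1 stood at 54938 CPM in the group of limb cells with the most Lcn2 and 26099 CPM in the group with the least. S100a6 did not differ that way in the limb, at 5116 and 5902 CPM. Socs3, the feedback inhibitor of STAT3 signalling, had 166.3 CPM in Kif3aΔTub and no UMI in WT principal-like cells, at least 60.5-fold higher, and 93.1 and 0.317 CPM in limb cells (7.62). It is on the list of immediate early and dissociation stress genes, of which 21 of 22 were at least 2-fold higher in the limb, 16 of 21 in the convoluted tubule and 11 of 22 in principal-like cells, against 23.5%, 21% and 12.4% of all genes. In proximal tubule-like cells 16 of 20 were and in intercalated-like cells 14 of 21, against 13% and 10.2% of all genes. The part of dissociation stress in these results was not tested.

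Among other secreted defence and acute phase genes, 10 of 11 measured were at least 2-fold higher in thick ascending limb-like cells, 6 of 8 in distal convoluted tubule-like cells and 11 of 13 in principal-like cells, against 23.5%, 21% and 12.4% of all genes. With genes at 0 in WT set at 3 UMIs the count in principal-like cells was 5 of 13, against 8.02% of all genes. In proximal tubule-like cells 12 of 13 were higher and in intercalated-like cells 7 of 7, against 13% and 10.2%. Cd14, the endotoxin co-receptor, had 98.8 CPM in Kif3aΔTub and 4.58 CPM in WT principal-like cells (log2 ratio 4.29) and a rho of 0.35 with Lcn2. Fgg, a fibrinogen chain, had 112 CPM in Kif3aΔTub convoluted tubule cells and no UMI in WT, at least 62.0-fold higher. Wfdc2, an antiprotease of ducts, had 8415 CPM in Kif3aΔTub and 1013 CPM in WT there. Defb1 went the other way, at 884.8 and 4651 CPM in the convoluted tubule (-2.39) and 1110 and 2610 CPM in principal-like cells (-1.23).

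Transport genes of the distal nephron and collecting duct were mostly lower in principal-like cells, and the counts differed between classes. In principal-like cells 15 of 26 were at least 2-fold lower and 2 (Trpm6 and Trpv5) higher in Kif3aΔTub (median log2 ratio -1.18). Of all genes 7.86% were that much lower and 12.4% higher. Calb1 stood at 132.2 CPM in Kif3aΔTub and 1086 CPM in WT (-3.04) and Aqp2 at 3857 and 9198 CPM (-1.25), while the calcium channel Trpv5 stood at 30.4 and 5.50 CPM (2.35). In the limb 6 of 23 were lower and 9 higher (median 0.52), where 4.64% and 23.5% of all genes were. In the convoluted tubule 7 of 25 were lower and 3 higher (median -0.08), where 3.42% and 21% of all genes were. In intercalated-like cells 1 of 25 was lower and 7 higher, where 3.19% and 10.2% of all genes were. Proximal tubule-like cells had 2 of 20 lower and 10 higher (4.15% and 13% of all genes), and endothelium-like cells 5 of 16 and 6 (3.62% and 4.92%). Aqp2, Hsd11b2 and Fxyd4 were among the higher genes in these classes and in the limb, and the part of free RNA in this was not tested. Several of the transport genes mark the principal-like class, and different clusters hold it in each library. Within Kif3aΔTub principal-like cells their median rho with Lcn2 was -0.04, and none of 19 measured reached 0.3 or -0.3.

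Genes of iron handling showed no common direction in principal-like and limb cells. Of those measured in principal-like cells 2 of 15 were at least 2-fold higher (Cp and Hp, both also on the acute phase list) and 3 lower (Bdh2, Heph and Ncoa4). In the limb 3 of 14 were higher and 1 lower. The higher counts are close to the 12.4% and 23.5% of all genes that were higher, while 7.86% and 4.64% of all genes were lower. In proximal tubule-like cells 4 of 16 were higher and in convoluted tubule cells 2 of 12, with none lower. Of all genes 13% and 21% were higher there, and 4.15% and 3.42% lower. In intercalated-like cells 3 of 13 were higher and 2 lower, against 10.2% and 3.19% of all genes. The ferritin light chain Ftl1 had 3191 CPM in Kif3aΔTub and 1667 CPM in WT principal-like cells (0.94), and the iron exporter Slc40a1 58.6 and 50.4 CPM. Of the other lipocalins, Ptgds had 37.5 and 5.50 CPM in principal-like cells (2.66), but 43.0 and 56.7 CPM in the limb. Genes of endoplasmic reticulum stress and secretion were at least 2-fold higher in 3 of 13, 5 of 12 and 3 of 12 measured in principal-like, limb and convoluted tubule cells, against 12.4%, 23.5% and 21% of all genes.

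Across 21 sums of a class or cluster within a library, the genes whose log2 level followed Lcn2 most closely by Pearson's r were Eif1a (0.90), Flot2 (0.88), Ctsd (0.87), Pum3 (0.86), Eif2s2 (0.86), Tmeff1 (0.85), Krt19 (0.85), Plp2 (0.84), Bok (0.83) and Sys1 (0.82), out of 13561 genes. Ctsd, the lysosomal protease cathepsin D, stood at 2209 CPM in Kif3aΔTub and 316.2 CPM in WT principal-like cells and at 332.3 and 132.7 CPM in proximal tubule-like cells. The sums share a library and its free RNA, and with the 14 Kif3aΔTub sums alone none of these 10 genes stayed among the first 10, where Cldn19 (0.91) and Kcnj1 (0.90) led.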

How the data were processed

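The deposited files hold UMI counts per gene and cell barcode for 1 Kif3aΔTub and 1 WT kidney, with 31053 genes and 7950 and 6938 barcodes. Per the submitters' processing notes Cell Ranger 3.0.2, Seurat 3.1.1 and the mm10 genome were used, while the matrix headers name Cell Ranger 3.1.0, and the difference could not be settled. Kept barcodes had at least 500 UMIs, at least 200 genes and under 50% mitochondrial UMIs, and 170 Kif3aΔTub and 54 WT barcodes called as doublets by scanpy 1.11.5 were removed. Kept cells held 79060495 Kif3aΔTub and 42468386 WT UMIs.

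Both libraries were clustered together (1900 variable genes, without Lcn2 and the genes of the 12 lists, 30 principal components, 15 neighbours, Leiden resolution 1, 32 clusters). Names come from marker lists for 20 cell types, by a rule written after the clusters had been seen. Levels are sums of counts per 1000000 UMIs (CPM), log2 ratios add 0.5 UMIs to each sum, and rank correlations were taken with scipy 1.17.1. Gene list ratios use genes with at least 20 UMIs over both libraries in a class. Steps were tested on simulated data.

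With 1 library per genotype no p-value is given, and intervals (exact Poisson or Clopper-Pearson, 95%) and the limit of 3 counts for a count of 0 cover counting error only. The gene, the lists and the tests were chosen with earlier results of these data known. Named genes are Lcn2, the 10 highest and 5 lowest by rho in a class, the 10 most like Lcn2 across classes, every listed receptor and transcription factor, and up to 4 members of each other list with the largest log2 ratios or the highest rho, besides class markers. Alternatives covered the mitochondrial, UMI and doublet filters, clustering, scaling, thinning, detection limits and pseudocounts. A few genes that this rule names are not reported here.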

Additional observations from a re-analysis of the deposited data

Results flagged for a closer look

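Barcodes left out of every comparison for holding 50% or more mitochondrial UMIs carried Lcn2 as well. The 372 such Kif3aΔTub barcodes with at least 500 UMIs and 200 genes had 276 Lcn2 UMIs, or 144 CPM (127 to 162), and the 1361 WT barcodes had 3 UMIs, or 0.267 CPM. Lcn2 was found in 35.8% of these barcodes in Kif3aΔTub and in 0.220% in WT. They are listed because the counts lie in data that the report does not use and above the WT level. The level is near that of Kif3aΔTub endothelium-like cells (138.3 CPM), and the part of free RNA in it was not tested.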

How the results depend on the processing

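No paired analysis was possible because each genotype has 1 library. No direction turned round under any alternative run. In a class without WT Lcn2 UMIs the value is a bound that falls when a run keeps fewer WT UMIs. A fall of such a bound alone does not show a change in Lcn2. Of the log2 ratios and bounds of Lcn2, 66 stayed near their value while 19 moved, as follows, with the cause not tested. Over all cells the ratio was 8.64 at a mitochondrial limit of 25%, 9.44 without mitochondrial UMIs in the total, 9.22 with median-of-ratios scaling and 9.33 as a mean over cells. In distal convoluted tubule-like cells the bound was 7.56, 9.59 and 9.59 under the first 3 of these and 7.25 after thinning; with resolution 0.5, doublets kept or all variable genes its Kif3aΔTub cells stayed unnamed and gave no value. In intercalated-like cells the bound was 6.71 at the 25% limit, 6.95 with at least 1000 UMIs, 6.23 at resolution 0.5, 4.34 after thinning, and the ratio 7.27 with libraries clustered separately. In principal-like cells the ratio was 4.42 at resolution 0.5, 6.11 with separate clustering and 6.46 after thinning. With no WT UMI left after thinning, the bound was 2.97 in endothelium-like and 7.16 in proximal tubule-like cells. Without clusters of low UMI count the bound was 4.22 in endothelium-like cells.

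The share of positive Kif3aΔTub cells after thinning, and then with at least 2 UMIs, was 93.6% and 86.2% in principal-like cells, 58.5% and 67.6% in convoluted tubule-like, 84.0% and 92.0% in limb-like, and 10.9% and 14% in proximal tubule-like cells. Intercalated-like cells had 15.0% and 18.4%, and cells like endothelium 13.6% and 5.70%. At the 25% limit it was 98.6% in principal-like and 86.0% in convoluted tubule-like cells. The share of Kif3aΔTub Lcn2 UMIs in principal-like cells was 72.7% at resolution 0.5 and 78.3% at resolution 2, where the limb had 7.38% and the convoluted tubule 2.53%. Genes at a rho of 0.3 numbered 6 after thinning, 52 at the 25% limit, and 11, 16 and 52 within clusters 0, 5 and 17 in principal-like cells, 1 after thinning in the limb, and 11 after thinning and 41 at the 25% limit in the convoluted tubule. None of the 10 genes most like Lcn2 stayed with Kif3aΔTub sums alone, and 7 did with a pseudocount of 10 CPM. With at least 100 UMIs per gene the counts at 2-fold were 5 of 7 acute phase genes in principal-like cells, 5 of 6 NF-kB and 6 of 7 acute phase genes in the limb, and 7 of 10 factors, 1 of 3 NF-kB and 3 of 4 acute phase genes in the convoluted tubule, where 12 of 16 acute phase genes were counted with at least 1 UMI. Depth limits WT most, where 0 UMIs allow up to 1.80 CPM in convoluted tubule-like cells.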
